A study of Homo sapiens with 24 samples.

Results

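SJSA-1 cells exposed for 6 h to 800 nM THZ531 were compared with SJSA-1 cells exposed for 6 h to 50 nM THZ531, the highest against the lowest dose, on 3 arrays per dose. These are 6 of the 24 Affymetrix PrimeView arrays of the series and were chosen by the dose in their labels. Both SJSA-1 and U2-OS are established human osteosarcoma lines. Cells of each line received either DMSO, the solvent alone, or 50, 200 or 800 nM THZ531 for 6 h, with 3 arrays in each of the 8 groups. All cells grew in DMEM with fetal bovine serum, and no group carries a genetic change made for the study. Whether the 3 arrays of one group stem from separate cultures is not given in the sources used here. The p-values therefore measure only the spread between arrays, which may be technical. The SJSA-1 DMSO and 200 nM arrays place the 2 doses on a scale, and the U2-OS arrays at 50 and 800 nM give the same comparison in another line. A gene was called active when its mean log2 intensity over the 3 SJSA-1 DMSO arrays exceeded log2(100), which held for 6568 of 18132 genes. Below, a level is a log2 intensity and a difference is the level at 800 nM minus the level at 50 nM, so that a difference of 1 is a 2-fold change.

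THZ531 is a covalent inhibitor of CDK12 and CDK13, kinases that bind cyclin K and phosphorylate the C-terminal domain of RNA polymerase II while it elongates. Loss of CDK12 activity is known to shorten transcripts of long genes through early polyadenylation, and many genes of homologous recombination depend on it. RNAs with a short half-life, such as those of immediate-early genes, transcription factors and cell cycle regulators, report a change in transcription within hours, whereas stable RNAs such as those of the ribosome change slowly.

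The spiked controls were alike at both doses, while the array medians differed slightly. The 24 poly-A control probe sets, which measure RNA added to each sample, had a mean level of 6.53 ± 0.14 (SD, n = 3) at 50 nM and 6.57 ± 0.15 at 800 nM, and the 18 hybridization controls 9.32 ± 0.13 and 9.30 ± 0.042. By two-sided exact permutation tests the 2 doses did not differ beyond the spread in either (p = 0.7 and p = 1), and 3 arrays against 3 cannot go below 0.1. The median level of active genes lay between 8.11 and 8.13 on the 50 nM arrays and between 8.06 and 8.09 on the 800 nM arrays, without overlap (exact permutation p = 0.1). Over the active genes, arrays of one SJSA-1 group correlated at r between 0.9954 and 0.9978, and a 50 nM array with an 800 nM array at r between 0.9204 and 0.9236. MDM2, which lies in a region amplified in SJSA-1, had a DMSO level of 10.7 ± 0.10 there against 7.18 ± 0.031 in U2-OS. Of 13 osteoblast lineage markers measured, SPARC alone exceeded 100 in the SJSA-1 DMSO arrays. One extraction text of the labels names brain tissue, and 0 of 16 neuron and glia markers exceeded 100 in any of the 3 groups examined (DMSO, 50 and 800 nM).

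Most active genes differed in level between the doses, and the largest differences were falls, such as those of TFAP2C, CHD1, MED26 and WEE1. Of the 6568 active genes, 4719 (71.8%) differed between the doses by limma with Benjamini-Hochberg adjustment, 2735 (41.6%) higher and 1984 (30.2%) lower at 800 nM. The large differences were mostly falls: 520 genes (7.92%) were at least 2-fold lower at 800 nM and 70 (1.07%) at least 2-fold higher. The 70 depended on how a gene was represented and filtered, with 24 for the mean of all probe sets, 31 for a DMSO mean above 200, 40 for log2(value + 16), 135 with no filter and 148 for single probe sets. Differences ranged from -3.20 to 2.22, with a median of 0.067 over all active genes. The 3 arrays at 800 nM lay above all 3 at 50 nM for 2802 genes (42.7%) and below all 3 for 2062 (31.4%). Since so many genes differed, the counts for gene groups below are read against these percentages.

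The DMSO arrays show what the 2 sets of large differences were made of. The 70 genes at least 2-fold higher at 800 nM had a median level of 7.48 in DMSO, 6.44 at 50 nM, 7.15 at 200 nM and 7.58 at 800 nM. They were thus low at the lowest dose and near their DMSO level at the highest. The 520 genes at least 2-fold lower had median levels of 7.80 in DMSO, 7.84 at 50 nM, 6.82 at 200 nM and 6.33 at 800 nM, so that they stood near DMSO at the lowest dose and fell below it at the others. Against DMSO, the median difference of the 70 genes was -1.10 at 50 nM and 0.093 at 800 nM, and that of the 520 genes was -0.022 and -1.55. Both sets were chosen on the 50 and 800 nM arrays, which these values share. The DMSO arrays entered the choice through the activity criterion, so a gene low in DMSO could not enter either set. Otherwise the DMSO and 200 nM arrays entered only through the choice of probe set and the shared estimate of the spread.

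**Figure D1:**
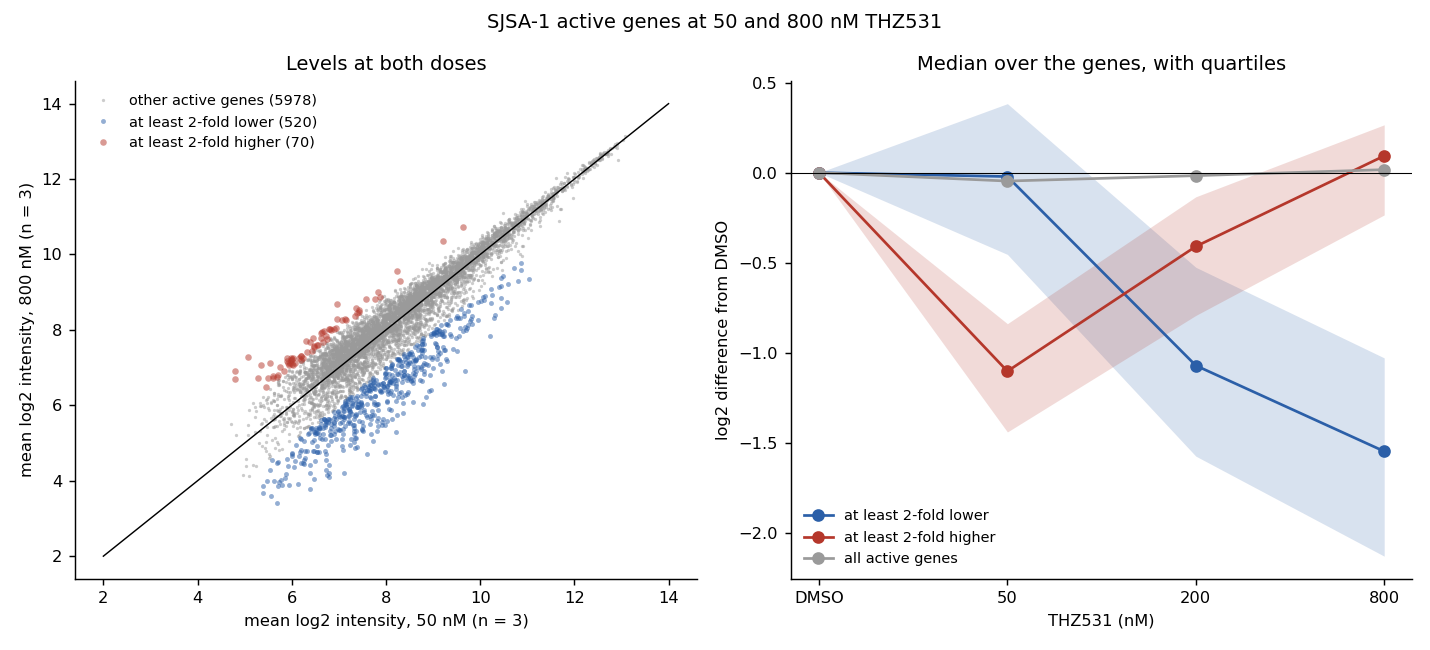
Left: mean level of each active SJSA-1 gene at 50 nM (x axis, log2 intensity, n = 3) and at 800 nM (y axis), with the line of equal levels, where the 520 genes at least 2-fold lower and the 70 at least 2-fold higher at 800 nM are coloured. Right: median log2 difference from DMSO of both sets and of all active genes at each dose, with shaded quartiles, which shows the higher set at -1.10 at 50 nM and 0.093 at 800 nM and the lower set at -0.022 and -1.55.

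Both doses differed from DMSO in most active genes, and the direction of these differences depends on the scaling. At 50 nM 4410 genes (67.1%) differed from DMSO, 1747 (26.6%) higher and 2663 (40.5%) lower, and at 800 nM 4860 (74%), 2394 (36.4%) higher and 2466 (37.5%) lower. The poly-A controls stood at 6.03 in the DMSO arrays, below their level at either dose. When the arrays were shifted to equal poly-A and hybridization controls, the median of all active genes moved by -0.385 at 50 nM and by -0.399 at 800 nM against DMSO, and the splits became 221 higher and 5050 lower at 50 nM and 123 higher and 4552 lower at 800 nM. Centring each array on its median gave 3179 higher and 2077 lower at 800 nM. For 800 against 50 nM the shift to equal controls moved the median by -0.014. It left 67 genes at least 2-fold higher and 536 at least 2-fold lower, so the large differences between the doses were little affected. The genes called fell from 4719 to 3497, with 1818 higher and 1679 lower. A level described as near DMSO holds for the deposited scale.

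Among active genes, most of the largest rises were of genes that had dropped at 50 nM. The activity criterion favours this pattern, since a gene low in DMSO that climbed with dose could not enter. FOS and EGR1, below the criterion, had larger differences, 2.93 and 2.72, and stood above DMSO at 50 nM. ATP10D, which encodes a phospholipid-transporting P4-ATPase, had levels of 7.12, 7.18 and 7.35 in DMSO, 5.20, 4.85 and 5.16 at 50 nM, 6.79, 6.57 and 6.52 at 200 nM and 7.20, 7.46 and 7.20 at 800 nM. The 800 nM arrays lay within or just above the DMSO range and far above the 50 nM arrays, with a difference of 2.22 ± 0.11 (SE; adjusted p = 8.75e-10). NRP1, the gene of neuropilin 1, a coreceptor for semaphorins and VEGF, had levels of 6.54, 6.76 and 6.85 in DMSO, 4.83, 4.83 and 4.73 at 50 nM and 6.87, 6.98 and 6.89 at 800 nM. Its 800 nM arrays all lay above its DMSO arrays, and its difference between the doses was 2.12 ± 0.088 (SE; adjusted p = 2.37e-10). FCHO2, which takes part in clathrin-mediated endocytosis, had levels of 5.52, 5.14 and 5.35 at 50 nM and 6.82, 7.35 and 7.03 at 800 nM, on both sides of its 6.67, 6.65 and 6.76 in DMSO, with a difference of 1.73 ± 0.12 (SE; adjusted p = 3.61e-08). CENPQ, a centromere protein gene, differed by 1.33 ± 0.096 (SE; adjusted p = 5.22e-08), from a mean of 6.45 at 50 nM to 7.79 at 800 nM, against 7.90 in DMSO.

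The 15 largest rises were completed by MYPN, ELOVL2, OSGEPL1, DNAJC6, PTER, PCMTD1, CCDC9B, CXCL2, SEMA3C, ABCC5 and BRCC3. MYPN, known for its role in the sarcomere, varied most between arrays: its levels were 6.19, 7.04 and 6.90 at 800 nM and 4.82, 4.91 and 4.65 at 50 nM. ELOVL2 and CXCL2 behaved differently from the rest, since they were not low at 50 nM. ELOVL2, an elongase of very long polyunsaturated fatty acids, had levels of 6.74, 6.75 and 7.40 at 50 nM and 8.61, 8.87 and 8.61 at 800 nM, against 7.08, 7.14 and 7.10 in DMSO. CXCL2, a chemokine gene, stood at 7.75, 7.78 and 7.85 in DMSO, 8.20, 8.29 and 8.23 at 50 nM and 9.47, 9.69 and 9.52 at 800 nM, so that its level was higher at each of these doses. All 17 active probe sets of these 15 genes had a positive difference.

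The largest falls included genes of transcription factors, chromatin proteins and a cell cycle kinase. TFAP2C, a transcription factor gene, had levels of 7.45, 8.07 and 7.63 in DMSO, 7.89, 8.11 and 7.92 at 50 nM, 6.29, 6.12 and 5.71 at 200 nM and 4.65, 4.61 and 5.05 at 800 nM. The 50 nM arrays overlapped the DMSO arrays and the 800 nM arrays lay far below both, with a difference of -3.20 ± 0.17 (SE; adjusted p = 2.63e-09). CHD1, a chromatin remodeller that associates with elongating RNA polymerase II, had levels of 8.25, 8.12 and 8.24 at 50 nM and 5.23, 5.31 and 5.34 at 800 nM, a difference of -2.91 ± 0.094 (SE; adjusted p = 2.46e-11). TADA1, a subunit of the SAGA coactivator complex, had levels of 7.64, 7.50 and 7.63 at 50 nM and 4.70, 4.73 and 4.70 at 800 nM, a difference of -2.88 ± 0.094 (SE; adjusted p = 2.54e-11). WEE1, the kinase that holds back entry into mitosis, had levels of 8.88, 8.77 and 8.89 at 50 nM and 6.19, 6.27 and 6.24 at 800 nM, a difference of -2.61 ± 0.063 (SE; adjusted p = 3.33e-12).

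Among the falls were genes that lay above DMSO at 50 nM and below it at 800 nM. MED26, the Mediator subunit that recruits elongation factors, had levels of 8.38, 8.47 and 8.48 in DMSO, 9.68, 9.67 and 9.66 at 50 nM, 7.85, 7.84 and 7.79 at 200 nM and 6.79, 6.99 and 6.92 at 800 nM. No array of one group overlapped another, and the difference between the doses was -2.77 ± 0.051 (SE; adjusted p = 6.05e-13). GATA6, a transcription factor gene, had levels of 6.59, 6.72 and 6.76 in DMSO, 7.65, 7.78 and 7.74 at 50 nM and 5.13, 5.05 and 4.97 at 800 nM. The arrays of DUSP4, DUSP5, PPM1D and PPRC1 also lay above all DMSO arrays at 50 nM and below them at 800 nM, but PPRC1 was only 0.09 above DMSO at 50 nM, which did not pass the test (adjusted p = 0.130). PPM1D, a phosphatase that opposes p53, had mean levels of 6.90 in DMSO, 7.39 at 50 nM and 4.89 at 800 nM, and DUSP4, a MAP kinase phosphatase, 7.42, 8.24 and 5.75. The 6 largest differences that crossed DMSO in the opposite direction were those of NRP1, FCHO2, OSGEPL1, PTER, SEMA3C and BRCC3. At 800 nM NRP1 was 0.197 above DMSO, which did not pass the test (adjusted p = 0.0601). PTER, OSGEPL1 and FCHO2 were 0.227, 0.263 and 0.373 above it, and SEMA3C and BRCC3 0.767 and 0.453. The shift to equal controls moved the median against DMSO by -0.385 at 50 nM and -0.399 at 800 nM. Crossings in either direction therefore hold for the deposited scale. BRCC3, a deubiquitinase of the BRCA1-A complex, had mean levels of 7.22 in DMSO, 6.38 at 50 nM and 7.67 at 800 nM. All 18 active probe sets of the 15 genes with the largest falls had a negative difference, and HAPSTR1, TIPARP, FBXO34, ELF2, PAPOLG, TRIM32 and ZNF217 completed those 15.

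**Figure D2:**
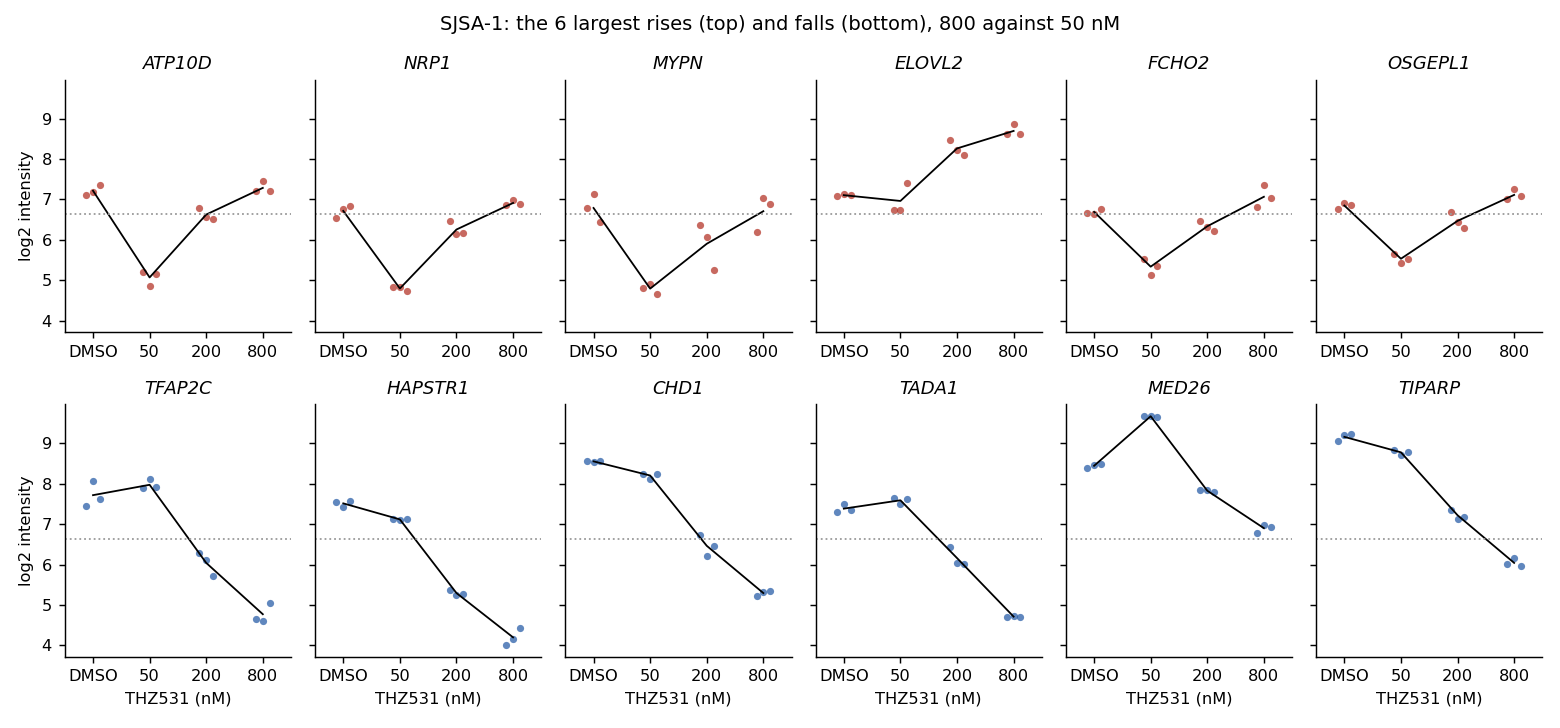
Levels (y axis, log2 intensity) of the 6 active genes with the largest rises (top row) and the 6 with the largest falls (bottom row) in SJSA-1 at each dose of THZ531 (x axis). Points are single arrays, lines join the means of 3 arrays and the dotted line is the activity criterion, log2(100). ATP10D, NRP1, MYPN, FCHO2 and OSGEPL1 dip at 50 nM and return, ELOVL2 rises to 8.70, and the genes in the bottom row drop at 200 and 800 nM, with MED26 first above its DMSO level.

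Promoters are shown for 2 genes of each direction, since the members of a set moved together and their promoters can be compared letter by letter. The RefSeq table for GRCh38.p14 held the promoters of 63 of the 70 genes higher, 445 of the 520 lower and 5610 of all active genes, and those of NRP1 and TFAP2C are named only. The 250 bases upstream of the start of ATP10D and MYPN, which rose, and of CHD1 and MED26, which fell, are given 5′ to 3′, with capitals marking 6 motifs on either strand. These were the TATA box TATAAA, the CCAAT box, the GC box GGGCGG, the AP-1 motif TGACTCA, the cAMP response element TGACGTCA and the ETS motif CCGGAAG, and neighbouring matches may overlap.
ATP10D, chr4:47485025-47485274, plus strand: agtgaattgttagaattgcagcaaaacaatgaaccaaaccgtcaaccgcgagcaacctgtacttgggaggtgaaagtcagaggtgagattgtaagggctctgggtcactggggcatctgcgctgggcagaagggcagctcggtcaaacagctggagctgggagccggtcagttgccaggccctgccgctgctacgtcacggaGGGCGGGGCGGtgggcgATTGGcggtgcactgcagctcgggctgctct
MYPN, chr10:68109238-68109487, plus strand: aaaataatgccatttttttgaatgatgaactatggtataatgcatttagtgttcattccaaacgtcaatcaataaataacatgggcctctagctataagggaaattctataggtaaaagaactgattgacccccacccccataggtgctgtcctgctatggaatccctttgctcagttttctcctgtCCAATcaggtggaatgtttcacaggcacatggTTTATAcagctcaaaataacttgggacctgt
CHD1, chr5:98929008-98929257, minus strand: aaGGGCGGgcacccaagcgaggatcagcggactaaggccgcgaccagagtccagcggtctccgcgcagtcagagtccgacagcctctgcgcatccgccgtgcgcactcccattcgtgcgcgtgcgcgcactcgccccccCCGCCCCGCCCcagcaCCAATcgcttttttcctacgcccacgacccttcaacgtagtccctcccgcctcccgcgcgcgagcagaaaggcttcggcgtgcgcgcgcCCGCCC
MED26, chr19:16628205-16628454, minus strand: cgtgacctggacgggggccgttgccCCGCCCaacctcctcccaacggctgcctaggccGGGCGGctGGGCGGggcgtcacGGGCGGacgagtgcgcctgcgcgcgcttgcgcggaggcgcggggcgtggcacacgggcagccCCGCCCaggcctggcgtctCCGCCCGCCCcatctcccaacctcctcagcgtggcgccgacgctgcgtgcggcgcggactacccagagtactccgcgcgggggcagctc
The 4 promoters differ in composition. That of ATP10D held 2 GC boxes and a CCAAT box read on the opposite strand, and was 60% G or C, while that of MYPN was 39.2% G or C and held a CCAAT box and TATAAA on the opposite strand. That of CHD1 held 4 GC boxes and a CCAAT box, and that of MED26 held 7 GC boxes and was 78% G or C. TATAAA was found in 6.35% of the promoters of genes higher, 6.52% of those lower, 5.01% of those of all active genes and 11.1% of all 27305 promoters in the table. The GC box was found in 63.5%, 69%, 69.4% and 42.3% of the same groups, the CCAAT box in 33.3%, 38.7%, 36.5% and 33%, and the AP-1 motif in 3.17%, 2.25%, 2.19% and 4.16%. The cAMP response element was in 4.76%, 3.82%, 3.42% and 1.77%, and the ETS motif in 14.3%, 14.8%, 18.9% and 8.82%. Median G or C content was 65.2% for genes higher, 65.6% for genes lower and 65.2% for all active genes. The widest gaps from all active genes, in percentage points, were those of the GC box in genes higher and of the ETS motif in both sets. These were 63.5% against 69.4%, and 14.3% and 14.8% against 18.9%. Motifs found in few promoters leave little room for such a gap, and the shares were not tested.

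Gene span, the distance from the first to the last base of a gene in the same RefSeq annotation, went with the difference between the doses. The 70 genes at least 2-fold higher at 800 nM had a median span of 94.2 kb, against 26.7 kb for the 520 at least 2-fold lower and 30.4 kb for all active genes. When active genes were divided into 10 bins of increasing span, the bin with the longest spans, from 139.5 to 1285 kb, had a median difference of 0.21, with 57.2% of 657 genes higher and 22.7% lower. The bin with the shortest spans, up to 5.34 kb, had a median of 0.05, with 37% higher and 28.8% lower. Over all 6568 genes Spearman's rho between span and difference was 0.136, given as a description, since genes share the same arrays and spans go with expression level. Within 4 classes of increasing DMSO level, rho was 0.12, 0.19, 0.115 and 0.111. Against DMSO, rho was -0.181 at 50 nM, -0.173 at 200 nM and -0.047 at 800 nM. The bin with the longest spans had a median difference from DMSO of -0.237 at 50 nM and 0.01 at 800 nM. Among single genes the spread was wide: TCF7L2, with a span of 217.4 kb, fell by 1.33, whereas CCDC9B, with a span of 9.49 kb, rose by 1.32.

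**Figure D3:**
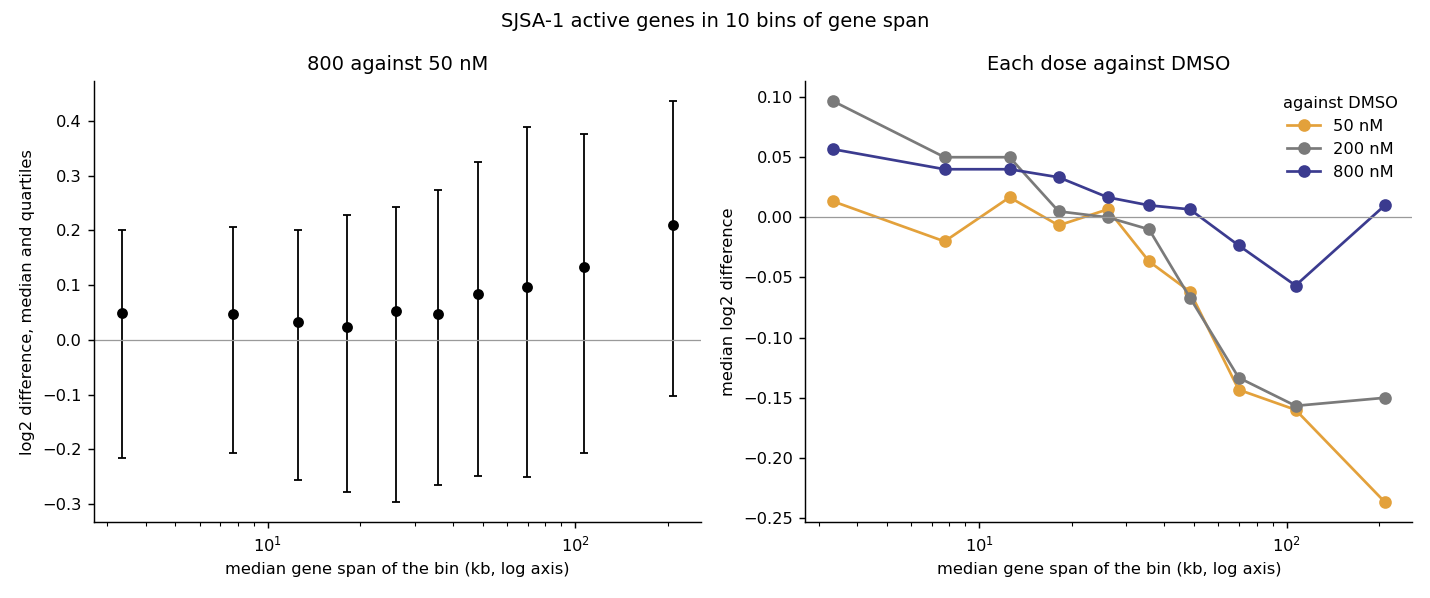
Active SJSA-1 genes in 10 bins of gene span (x axis, median span in kb on a log axis). Left: median and quartiles of the log2 difference between 800 and 50 nM, from 0.05 in the bin of shortest spans to 0.21 in that of the longest. Right: median log2 difference from DMSO at 50, 200 and 800 nM, where the bin of longest spans lies at -0.237 at 50 nM and at 0.01 at 800 nM.

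The kinases that THZ531 acts on and most of their relatives were themselves lower at 800 than at 50 nM. Of 12 active transcription kinase and P-TEFb genes, 8 fell and 2 rose, with a median difference of -0.38, beside 30.2% lower and a median of 0.067 over all active genes. CDK12 had levels of 7.46, 7.33 and 7.52 in DMSO, 7.22, 7.23 and 7.11 at 50 nM and 6.15, 6.23 and 6.13 at 800 nM, a difference of -1.02 ± 0.073 (SE; adjusted p = 5.26e-08). CDK7, the kinase of TFIIH, stood at 9.08, 9.06 and 9.08 at 50 nM and 7.52, 7.64 and 7.47 at 800 nM, a difference of -1.53 ± 0.052 (SE; adjusted p = 3.46e-11). MEPCE, the capping enzyme of 7SK RNA, differed by -1.58, CCNK, which encodes cyclin K, by -0.52, and CDK9, the kinase of P-TEFb, by -0.24. CCNK had means of 8.69 in DMSO, 9.13 at 50 nM and 8.61 at 800 nM. Its 800 nM level did not differ from DMSO by limma (adjusted p = 0.0964). CDK9 had means of 7.14, 6.52 and 6.28 in the same groups. On the deposited scale HEXIM1, the inhibitor of P-TEFb, lay above DMSO at both doses. Its levels were 8.14, 8.12 and 8.17 in DMSO, 9.45, 9.22 and 9.30 at 50 nM and 8.48, 8.53 and 8.62 at 800 nM. At 800 nM it was 0.40 above DMSO, while the shift to equal controls moved the median against DMSO by -0.399. LARP7, which binds 7SK RNA, rose by 0.61 and CDK19, a Mediator kinase, by 0.87. CDK13 was below the activity criterion, with levels of 6.47, 6.30 and 6.62 in DMSO, 5.46, 5.73 and 5.46 at 50 nM and 5.39, 4.95 and 5.06 at 800 nM.

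Other parts of the transcription machinery were mixed, and their largest differences were falls. Over all active genes 30.2% fell and 41.6% rose. Of 34 active Mediator and RNA polymerase II genes 14 fell (41.2%) and 8 rose (23.5%), with a median of -0.027. MED17, MED7 and MED23 differed by -1.96, -1.37 and -1.23 beside MED26. Of 20 active genes of BET proteins and elongation factors 10 fell (50%) and 4 rose (20%), with a median of -0.138. BRD2, a BET protein gene, had levels of 9.60, 9.61 and 9.64 in DMSO, 10.80, 10.95 and 10.83 at 50 nM and 9.59, 9.53 and 9.63 at 800 nM, so that it was high at the low dose alone of these 3 groups. The elongation factor genes IWS1, LEO1 and NELFA differed by -1.64, -1.39 and -1.13. The 28 active genes of Integrator and mRNA 3′ end processing split evenly, with 11 higher and 11 lower (39.3% each). Among the latter were PAPOLG, a poly(A) polymerase gene, at -2.60 and CSTF1, a cleavage factor gene, at -1.76. Of 36 active SR protein, hnRNP and CLK kinase genes 11 rose (30.6%) and 12 fell (33.3%). The splicing kinase genes CLK1 and CLK4 differed by -2.28 and -2.03.

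Numbered zinc finger genes, most of which encode DNA-binding repressors, were lower as a group. Of 71 active members 45 fell (63.4%) and 6 rose (8.45%), with a median difference of -0.48, beside 30.2% and 41.6% over all active genes. Their median difference from DMSO was -0.393 at 50 nM, -0.773 at 200 nM and -1.09 at 800 nM on the deposited scale. The largest falls were those of ZNF217 at -2.57, ZNF7 at -2.29, ZNF697 at -2.19 and ZNF263 at -2.09. ZNF263 lay above DMSO at 50 nM, with means of 7.67 in DMSO, 8.21 at 50 nM and 6.12 at 800 nM, while ZNF7 was lower at each dose, with 6.78, 5.69 and 3.40.

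Immediate-early and AP-1 genes active in DMSO separated into a falling majority and a few that climbed. Of 39 measured members 25 were active, so members low in DMSO are not counted. Of the 25, 18 fell (72%) and 4 rose (16%), beside 30.2% and 41.6% over all active genes. Their median difference was -0.53, with medians against DMSO of 0.463 at 50 nM, 0.397 at 200 nM and -0.137 at 800 nM. FOSL1, an AP-1 subunit, had levels of 8.95, 9.07 and 8.91 in DMSO, 8.04, 8.15 and 8.0 at 50 nM and 5.67, 5.99 and 6.01 at 800 nM, a difference of -2.17 ± 0.10 (SE; adjusted p = 6.25e-10). CSRNP1 and KLF2, transcription factor genes, differed by -2.23 and -1.49, ZFP36L2, an mRNA decay factor gene, by -1.13 and DUSP1, a MAP kinase phosphatase gene, by -0.92. JUNB, another AP-1 subunit, went the other way, with 6.66, 6.68 and 6.76 in DMSO, 7.89, 7.88 and 7.72 at 50 nM, 9.15, 9.15 and 9.17 at 200 nM and 9.01, 8.85 and 9.14 at 800 nM. IER2 rose by 1.09, ZFP36 by 0.38 and IER3 by 0.31, and JUN and GADD45B, at 0.05 and 0.03, did not pass the test. FOS and EGR1 were below the activity criterion in DMSO and were looked up after their values were seen.

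FOS, the partner of JUN proteins in AP-1, had levels of 5.12, 5.03 and 5.08 in DMSO, 6.27, 6.31 and 6.20 at 50 nM, 8.96, 8.98 and 8.99 at 200 nM and 9.17, 9.18 and 9.21 at 800 nM. Its level was higher at each dose than at the one below, without overlap, and the difference between 800 and 50 nM was 2.93 ± 0.052 (SE). EGR1, a zinc finger immediate-early factor, had levels of 4.38, 4.92 and 4.71 in DMSO, 6.11, 6.20 and 5.96 at 50 nM and 8.68, 8.89 and 8.86 at 800 nM, a difference of 2.72 ± 0.12 (SE). MYC, also below the criterion, had levels of 5.10, 5.42 and 5.23 in DMSO and 6.81, 6.71 and 6.64 at 50 nM. At 200 nM they were 7.41, 7.25 and 7.31, and at 800 nM 6.56, 6.74 and 6.91. The MYC arrays at 50 and 800 nM overlapped, with a difference of 0.017 ± 0.097 (SE; adjusted p = 0.926 over all 18132 genes). Those at 200 nM lay above both.

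Growth factor, cytokine and stress genes moved in both directions, beside 41.6% higher and 30.2% lower over all active genes. Of 25 active receptor and RAS-MAPK genes 12 fell (48%) and 7 rose (28%). EGFR, the epidermal growth factor receptor, had levels of 6.98, 7.12 and 7.07 in DMSO, 5.88, 5.96 and 5.72 at 50 nM and 6.61, 6.79 and 6.83 at 800 nM, a difference of 0.89 ± 0.091 (SE; adjusted p = 1.56e-06). The feedback inhibitors DUSP5, DUSP4 and SPRED2 differed by -2.65, -2.50 and -1.57, and IRS2, an insulin receptor adaptor, by -1.78. Of 28 active SMAD and Hippo genes 14 fell (50%) and 9 rose (32.1%), with TGIF1, a SMAD corepressor gene, at -2.50 and SMAD1 at -1.53. Of 13 active NF-kB and cytokine genes 5 rose (38.5%) and 2 fell (15.4%). CXCL1 rose by 0.71 while TNFAIP3, an inhibitor of NF-kB, fell by 1.03. Of 24 active ATF4 and unfolded protein response genes 10 fell (41.7%) and 6 rose (25%). CEBPB, XBP1, DNAJB9 and HERPUD1 differed by -1.77, -1.58, -1.48 and -1.45. Of 19 active heat shock and chaperone genes 9 fell (47.4%) and 2 rose (10.5%), and DNAJB1, a cochaperone of HSP70, fell by 1.98. HSPA1B had mean levels of 9.16 in DMSO, 10.24 at 50 nM and 9.10 at 800 nM, a fall of 1.14 between the doses.

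Genes of homologous recombination, the Fanconi pathway and the checkpoint included rises and falls. Of 25 active members 13 rose (52%) and 7 fell (28%), near the 41.6% and 30.2% over all active genes, with a median difference of 0.19 and medians against DMSO of -0.56 at 50 nM, -0.42 at 200 nM and -0.31 at 800 nM. BRCA1 had levels of 7.02, 7.16 and 7.05 in DMSO, 6.00, 5.91 and 5.99 at 50 nM, 6.81, 6.59 and 6.56 at 200 nM and 6.96, 7.28 and 7.10 at 800 nM. Its 800 nM arrays overlapped its DMSO arrays, and its difference between the doses was 1.15 ± 0.081 (SE; adjusted p = 4.42e-08). ATR, the checkpoint kinase, had levels of 7.44, 7.55 and 7.47 in DMSO, 6.22, 6.18 and 6.06 at 50 nM and 7.11, 7.28 and 7.34 at 800 nM, a difference of 1.09 ± 0.092 (SE; adjusted p = 2.33e-07). RAD17, RAD50, MDC1 and RAD54B rose by 0.73, 0.60, 0.57 and 0.56. PALB2, which links BRCA1 to BRCA2, was lower at 50 nM than in DMSO and lower again at 200 and 800 nM, whose arrays overlapped, with 7.45, 7.56 and 7.64 in DMSO, 5.88, 5.77 and 5.97 at 50 nM, 4.65, 4.65 and 4.26 at 200 nM and 4.16, 4.50 and 3.86 at 800 nM. BARD1, the partner of BRCA1 in its ubiquitin ligase, fell by 0.89, from 5.54 to 4.64, with a DMSO mean of 6.84. BRCA1 spans 126.0 kb and ATR 129.5 kb, and PALB2 spans 38.15 kb and BARD1 84.04 kb.

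Centrosome, cell cycle and apoptosis genes included rises and falls, beside 41.6% higher and 30.2% lower over all active genes. Of 22 active centrosome and cilium base genes 13 rose (59.1%) and 3 fell (13.6%), with a median difference of 0.222 and a median span of 88 kb, although relative to all genes the median changed sign when all probe sets of a gene were averaged. TUBGCP3, a subunit of the gamma-tubulin ring complex, rose by 1.02 and CEP41 by 1.05, whereas CEP350 fell by 1.76, with means of 7.65 in DMSO, 5.78 at 50 nM and 4.02 at 800 nM. Of 55 active DNA replication and G1/S genes 25 rose (45.5%) and 17 fell (30.9%), near the shares over all active genes. CDC25A and CCNE1, which drive entry into S phase, differed by -1.93 and -1.79. Of 63 active G2/M and mitosis genes 27 fell (42.9%) and 24 rose (38.1%). AURKA, a mitotic kinase, had levels of 10.77, 10.81 and 10.83 at 50 nM (10.77, 10.76 and 10.82 in DMSO) and 9.36, 9.29 and 9.26 at 800 nM, a difference of -1.50 ± 0.040 (SE; adjusted p = 5.52e-12). KIF14, a mitotic kinesin, rose by 1.19, from a mean of 5.92 to 7.11, with 7.30 in DMSO. Of 22 active p53 targets 9 rose and 9 fell (40.9% each), with BAX, a proapoptotic gene, at 0.65 and AEN, an exonuclease gene, at -1.37. Of 20 active apoptosis regulators 7 rose (35%) and 8 fell (40%). FADD, the adaptor of death receptors, was at -1.85 and MCL1, a short-lived antiapoptotic protein gene, at -0.89. The antiapoptotic genes XIAP and BCL2L2 were at 0.86 and 0.69.

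Adhesion and extracellular matrix genes differed by small amounts. Of 34 active members 23 rose (67.6%), 2 fell (5.88%) and 9 did not pass the test, beside 41.6% higher and 30.2% lower over all active genes, with a median difference of 0.208 and a range from -0.453 to 0.713. Their medians against DMSO were -0.028 at 50 nM, 0.117 at 200 nM and 0.158 at 800 nM. The integrin genes ITGA4 and ITGAV rose by 0.71 and 0.57, LAMB1, a laminin chain, by 0.46, PTK2, which encodes focal adhesion kinase, by 0.46 and FN1, fibronectin, by 0.38, while the matrix metalloproteinase gene MMP3 fell by 0.45 and MMP1, at -0.11, did not pass the test. Of 19 active aminoacyl-tRNA synthetase genes 12 rose (63.2%) and 1 fell, with a median of 0.17, and CARS1 rose by 0.54 and AARS1 by 0.43. Genes of the ribosome, of oxidative phosphorylation and of the proteasome had medians near that of all active genes. The 63 cytoplasmic ribosome genes had a median of 0.05, with 13 higher and 1 lower, the 71 oxidative phosphorylation genes a median of 0.067, with 26 higher and 3 lower, and the 30 proteasome genes a median of 0, with 9 higher and 5 lower. The 74 mitochondrial ribosome genes split into 26 higher and 25 lower, with MRPL44 at -1.28.

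**Figure D4:**
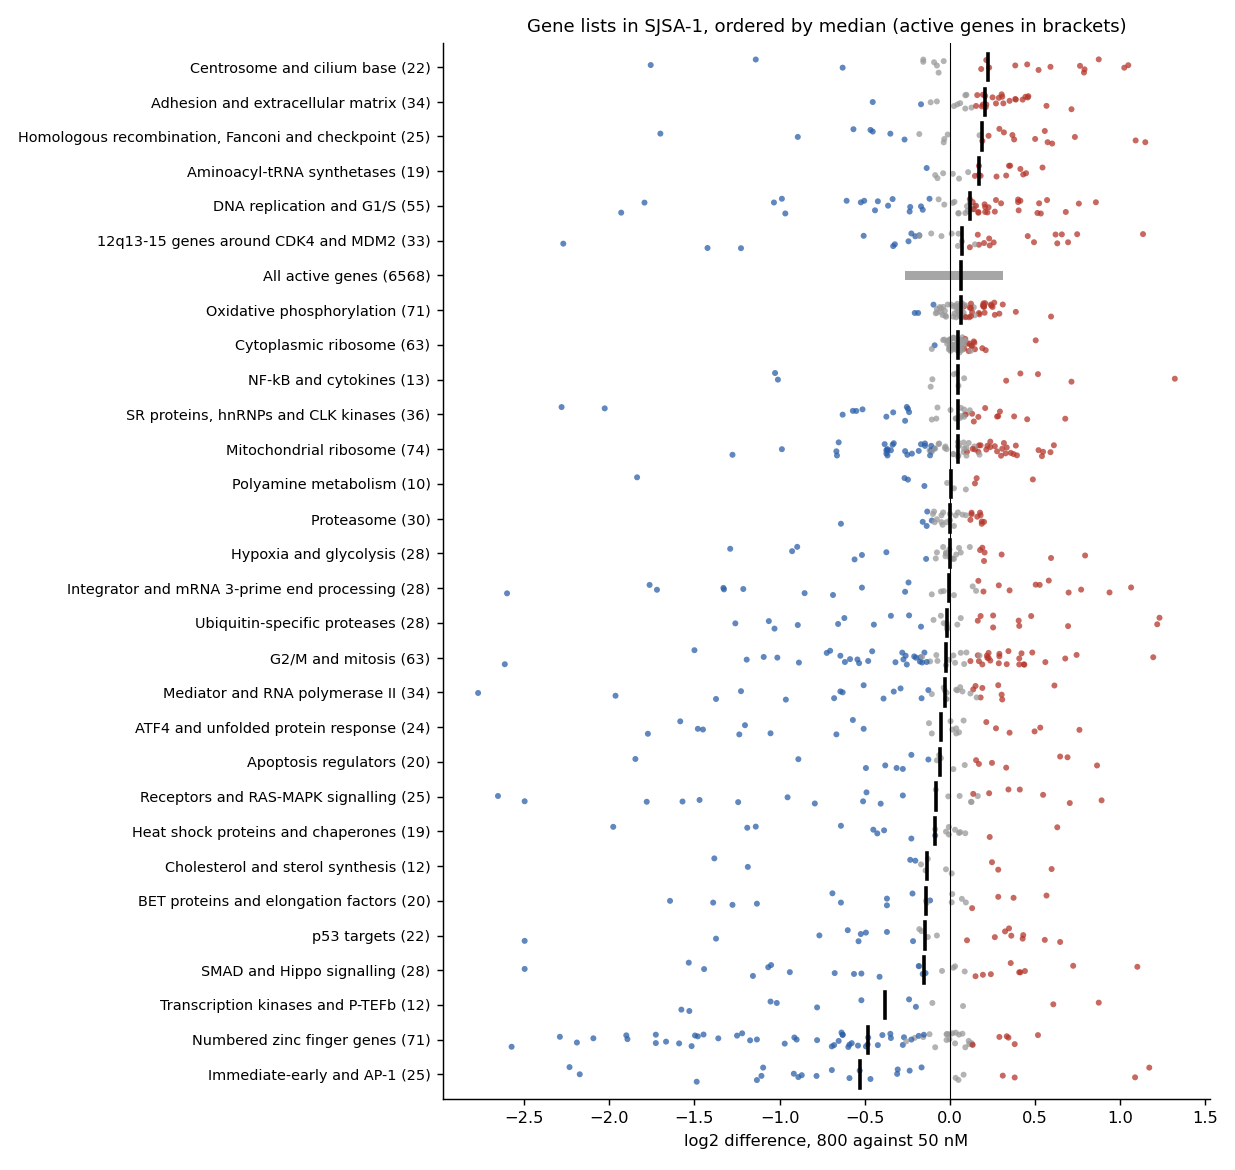
Log2 difference between 800 and 50 nM (x axis) of each active member of the gene lists (y axis, number of active genes in brackets), where red points rose, blue points fell, grey points did not pass the test and black bars are list medians. The grey band marks the quartiles of all active genes. Medians run from -0.53 for immediate-early and AP-1 genes to 0.222 for centrosome and cilium base genes.

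Genes of 12q13-15, the region amplified in SJSA-1, did not stand apart. Of 33 active genes 15 rose (45.5%) and 10 fell (30.3%), beside 41.6% and 30.2% over all active genes. Their median difference was 0.07. CDK4 rose by 0.12, from 12.4 ± 0.046 to 12.5 ± 0.012 (SD, n = 3). That call was lost with no filter (adjusted p = 0.0807), with the spiked control shift (adjusted p = 0.439) and without 50 nM replicate 3 (adjusted p = 0.0559). MDM2, at -0.18, did not pass the test (adjusted p = 0.101). MDM2 did pass with the probe set of highest mean linear value, at -0.61 (adjusted p = 1.16e-07), with the mean of its probe sets, at -0.27, with quantile normalization again, at -0.23, and without 50 nM replicate 2, at -0.27, and 9 of its 11 active probe sets were negative. DYRK2, a kinase gene of the region, fell by 2.27 and HMGA2, a chromatin protein gene, rose by 1.13, from levels of 5.58, 5.67 and 5.55 to 6.53, 6.81 and 6.86, against 7.84, 7.85 and 7.78 in DMSO. Of 7 candidate genes named in the study's text, 6 were active here. Against DMSO, 5 of those were lower and 1 higher at 50 nM, and 5 were lower and 0 higher at 800 nM, on the deposited scale. At 50 and 800 nM the differences from DMSO were -1.53 and -0.617 for LACTB and -0.94 and -0.263 for CEP55. They were -0.857 and -0.867 for FOXP1 and -0.313 and -0.277 for SRSF3. Between the 2 doses, CEP55 rose by 0.68 and TCF7L2 fell by 1.33. LACTB rose by 0.91 in the probe set used, while its other active probe set was at -0.08. DNAJB12 was at 0.11 (adjusted p = 0.0434), a call that was lost without any 1 array other than 800 nM replicate 2, and with the spiked control shift (adjusted p = 0.457). SRSF3, at 0.037, and FOXP1, at -0.01, did not pass the test in the probe set used. All 5 active probe sets of SRSF3 were positive, and it passed with the mean of its probe sets, at 0.113 (adjusted p = 0.0226). The 7 active probe sets of FOXP1 ran from -0.71 to 0.467, and 2 of them were negative. APOLD1 was below the activity criterion, with means of 3.73 in DMSO and 3.76 at 800 nM. STAT3, at -0.06, did not pass the test either (adjusted p = 0.328).

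The 200 nM arrays lay between the 2 doses and nearer to 800 nM. Against 50 nM, 4231 genes (64.4%) differed at 200 nM, 2200 (33.5%) higher and 2031 (30.9%) lower, with 269 (4.1%) at least 2-fold lower and 9 (0.137%) at least 2-fold higher. Between 200 and 800 nM 2195 genes (33.4%) differed, 1326 (20.2%) higher and 869 (13.2%) lower, with 22 (0.335%) at least 2-fold lower, 0 at least 2-fold higher and a largest rise of 0.93. That split depended on scaling, since a shift to equal poly-A and hybridization controls left 406 genes higher and 669 lower. It also depended on single arrays, as the count ranged from 1647 to 2571 when any 1 of the 6 arrays was left out. For the 70 genes at least 2-fold higher at 800 than at 50 nM, the median difference was 0.70 between 50 and 200 nM and 0.49 between 200 and 800 nM. For the 520 at least 2-fold lower, it was -0.995 and -0.50. These comparisons share arrays with each other and with that of 800 against 50 nM.

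In U2-OS cells the same pair of doses gave a different, and in part opposite, set of differences. Of the 6741 genes active in U2-OS, 3712 (55.1%) differed between 800 and 50 nM, 1530 (22.7%) higher and 2182 (32.4%) lower. Of the 5851 genes active in both lines, 4141 (70.8%) had a difference that itself differed between the lines by limma, 2401 (41%) higher in SJSA-1 and 1740 (29.7%) lower. The technical values of U2-OS did differ between its doses: the poly-A controls rose by 0.839 from 50 to 800 nM, with 50 nM arrays between 4.92 and 5.61, and the hybridization controls by 0.116. With arrays shifted to equal controls, the median difference between the lines moved from 0.083 to 0.598 and the split became 4129 higher in SJSA-1 and 682 lower. The number of line differences and their direction overall therefore hold for the deposited scale, and the part of the controls in single genes was not tested beyond this shift.

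The genes with large dose differences in SJSA-1 can be followed in U2-OS, whose dose differences were not used to choose them. The U2-OS arrays entered only through the activity criterion in its DMSO arrays and the choice of probe set. Of the 48 genes at least 2-fold higher in SJSA-1 that were active in both lines, 43 were lower (89.6%) and 2 higher in U2-OS at 800 than at 50 nM, with a median of -0.883, beside 31.8% lower and a median of -0.027 for all 5851 genes. Of the 429 at least 2-fold lower in SJSA-1, 222 were higher (51.8%) and 119 lower (27.7%) in U2-OS, with a median of 0.16, beside 23.1% and 31.8%. Of the 2407 genes that rose in SJSA-1, 1052 (43.7%) fell in U2-OS, which are 56.6% of the 1860 that fell there. Of the 1724 that fell in SJSA-1, 791 (45.9%) rose in U2-OS, which are 58.4% of the 1354 that rose there. Genes that rose in both lines numbered 194, 8.06% of those in SJSA-1 and 14.3% of those in U2-OS, and genes that fell in both numbered 439, 25.5% and 23.6%. Across the 5851 genes the SJSA-1 and U2-OS differences between 800 and 50 nM had Pearson's r = -0.31 and Spearman's rho = -0.359. The U2-OS differences between 800 and 50 nM instead went with the SJSA-1 differences between 50 nM and DMSO, with r = 0.822 and rho = 0.767. These are descriptions across genes of the same arrays, no array is shared between the lines, and both SJSA-1 comparisons use the 50 nM arrays. The U2-OS directions, counts and medians hold for the deposited scale, since the poly-A controls of U2-OS rose by 0.839 from 50 to 800 nM.

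MED26, which fell by 2.77 in SJSA-1, rose by 0.90 in U2-OS, from 7.69 ± 0.058 to 8.59 ± 0.061 (SD, n = 3), a difference between the lines of -3.67 ± 0.066 (SE; adjusted p = 4.03e-20). CLK1 rose by 1.34 in U2-OS, with a difference between the lines of -3.62, and CHD1 by 0.44, with -3.35. TADA1, PRDM2 and PPM1D followed with -3.33, -3.32 and -3.22. In the opposite direction, ATP10D fell by 1.59 in U2-OS, from 6.87 ± 0.14 to 5.28 ± 0.15, and NRP1 by 1.58, from 7.01 ± 0.24 to 5.43 ± 0.083, so that their differences between the lines were 3.81 ± 0.17 and 3.70 ± 0.16 (SE; adjusted p = 3.41e-14 and 8.59e-15). TUBGCP3 fell by 2.27 in U2-OS, with a difference between the lines of 3.30, and PTER, CENPQ and CCDC9B had 2.92, 2.86 and 2.84. BRCA1 fell by 0.98 in U2-OS, and rose by 1.15 in SJSA-1. HMGA2 fell by 1.63 there, against a rise of 1.13. JUNB was higher in both lines, by 1.17 in SJSA-1 and 0.93 in U2-OS, and FOSL1 was lower in both, at -2.17 in SJSA-1 and -1.21 in U2-OS. Of the immediate-early and AP-1 genes active in both lines, 21 of 24 had a lower difference in SJSA-1 and 2 a higher one, beside 29.7% lower and 41% higher over all genes active in both lines. Of the adhesion genes, 21 of 29 had a higher difference in SJSA-1 and 1 a lower one. These list counts hold for the deposited scale, since the control shift turned the split over all genes to 4129 higher and 682 lower. The directions of single genes in U2-OS hold for that scale too.

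**Figure D5:**
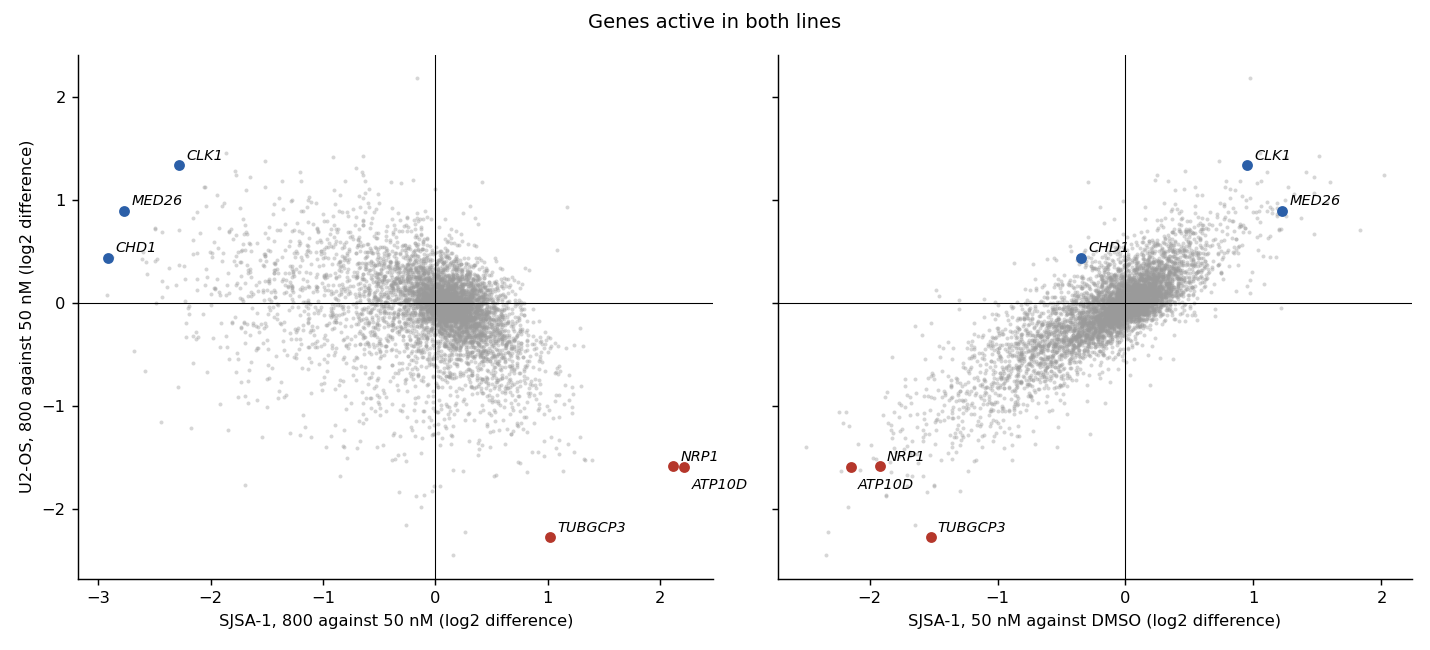
U2-OS log2 difference between 800 and 50 nM (y axis) of the 5851 genes active in both lines against the SJSA-1 difference between 800 and 50 nM (left, r = -0.31) and between 50 nM and DMSO (right, r = 0.822). Named genes have large differences between the lines, where blue ones fell and red ones rose in SJSA-1 at 800 nM.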

How the data were processed

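RNA of U2-OS and SJSA-1 cells was hybridised to PrimeView arrays. The authors normalized the arrays by RMA, quantile normalization included, before they deposited the intensity values, while MAS5 appears beside RMA in the submitters' processing notes. The deposited intensities are linear, and their log2 values lie on whole hundredths. No genome build is named for the arrays. Of 49372 probe sets 44994 had 1 gene symbol, 1832 several and 2546 none. Entrez identifiers gave current symbols to 44967 probe sets, and 27 kept the deposited one. Each gene was represented by 1 probe set, that of highest mean across the 24 arrays. Array medians in SJSA-1 lay between 30.1 and 32.7, and signal over background and the number of arrays limit the precision.

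The 12 SJSA-1 arrays were fitted as 4 groups on the log2 scale, with no pseudocount, by lmFit and eBayes of limma (version 3.58.1, R version 4.3.3). Adjustment (Benjamini-Hochberg) was over 6568 active genes, and calls used an adjusted p under 0.05. The difference between the lines was fitted over all 24 arrays and 8 groups for 5851 genes. The fit was tested on simulated data with known changes. Genes named are the 15 largest rises and falls whose arrays at both doses did not overlap, the 6 largest in each direction that crossed the DMSO arrays, the 6 largest differences between the lines in each direction, the transcription kinases and the study's candidate genes, and up to 4 members of each list. Others were chosen after their values were seen. Members and lists were chosen with earlier results of these data known. Alternatives covered the pseudocount, the filter, the choice of probe set, scaling, the model and leaving out each array, and genes active in any group were added after seeing the data. Spans and promoters are from RefSeq on GRCh38.p14. Plots were made in Python 3.11.15 (matplotlib 3.10.9).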

Additional observations from a re-analysis of the deposited data

Results flagged for a closer look

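The dose comparison differed between the lines, by a test of the difference itself, in 4141 of the 5851 genes active in both. The genes with the largest such differences, SJSA-1 minus U2-OS on the log2 scale, were MED26 at -3.67, CLK1 at -3.62, CHD1 at -3.35, TADA1 at -3.33, PRDM2 at -3.32 and PPM1D at -3.22. On the other side were ATP10D at 3.81, NRP1 at 3.70, TUBGCP3 at 3.30, PTER at 2.92, CENPQ at 2.86 and CCDC9B at 2.84. Shifting the arrays to equal poly-A and hybridization controls adds 0.515 to the difference of every gene, which gave -3.15 for MED26 and 4.32 for ATP10D. Groups of 3 arrays are too small for a test of single arrays.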

How the results depend on the processing

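For 800 against 50 nM the count of 4719 genes lay between 3196 and 6596 under all alternatives except each probe set on its own, which gave 9607. The count of at least 2-fold differences, 590, became 937 with no filter on low values, 326 with a DMSO mean above 200, 344 with the mean of all probe sets and 1064 for single probe sets. Single probe sets gave 8245 for 200 against 50 nM, 4226 for 800 against 200 nM, 8918 and 10044 for 50 and 800 nM against DMSO and 7804 for the difference between the lines. No filter gave 7068 and 8217 against DMSO and 7096 between the lines. The latter was 2548 with a DMSO mean above 200 and 2706 with the mean of all probe sets. For 800 against 200 nM the count of 2195 became 1452 with a DMSO mean above 200, 1075 after a shift to the spiked controls and 1368 at an adjusted p under 0.01. These alternatives test other numbers of genes, except the last 2. Pearson's r between log10 span and difference was 0.103.

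Leaving out 1 array gave 4389 to 4591 genes for 800 against 50 nM, 586 to 602 at least 2-fold, 3867 to 4100 for 200 against 50 nM, 1647 to 2571 for 800 against 200 nM, 4102 to 4209 and 4505 to 4658 for 50 and 800 nM against DMSO, and 4002 to 4068 between the lines. With all probe sets averaged, DNAJB6 turned to 0.136, PSMA1 to -0.10 and RPL4 to -0.321, and the cause was not tested. Same-numbered 50 and 800 nM arrays deviated from their group means with r of -0.193, -0.311 and -0.0102, and differently numbered ones with r from -0.0525 to 0.246. Deviations from a mean of 3 arrays are bound to offset each other, so these values cannot show whether replicate numbers pair the arrays. A replicate block gave 4619 genes for 800 against 50 nM and 4051 between the lines. The methods' t-test called 4580 genes unadjusted and 4317 after Benjamini-Hochberg adjustment. Of the named genes, 13 changed their call in some alternative. The sign of a list's median relative to all genes turned in 29 of 660 recomputed values, in 9 of 30 lists. The number of exons and the transcript length were not run. Signal over background limits the folds of genes that ended near the lowest intensities.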

Other observations

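Among the 11564 genes below the activity criterion in DMSO, which the main tests leave out, 86 exceeded an intensity of 100 at 50 nM and were at least 2-fold lower at 800 nM, and 13 exceeded 100 at 800 nM and were at least 2-fold higher than at 50 nM. This look at genes below the criterion was added after seeing the data. The genes were chosen by their level and fold on these arrays, so their values and both counts are given as a description, with no test. EID3 had mean levels of 4.90 in DMSO, 8.31 at 50 nM and 6.78 at 800 nM. RGS2, a regulator of G protein signalling, had 5.44, 7.53 and 6.23, and DDIT4, an inhibitor of mTORC1, 6.46, 7.92 and 6.43. CCNT1 and CCNT2, the cyclins of P-TEFb, had 6.53, 7.29 and 5.88 and 5.88, 7.15 and 5.72. SMAD7, a feedback inhibitor of TGF-beta signalling, had 6.14, 7.42 and 5.53. JAG1, a Notch ligand, had 5.78, 7.32 and 6.01.

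The 13 genes that exceeded 100 at 800 nM included FOS, EGR1 and CCL2, a chemokine gene. CCL2 had levels of 5.97, 6.25 and 6.43 in DMSO, 7.22, 7.35 and 7.11 at 50 nM and 8.38, 8.44 and 8.45 at 800 nM. Others were lower at 50 nM than in DMSO, as CILK1, with means of 6.30 in DMSO, 5.36 at 50 nM and 6.82 at 800 nM, and MMS22L, a replication fork repair gene, with 6.63, 5.86 and 7.01.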
